A study of Mus musculus with 30 samples.

Results

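Glucose entry, glycogen use, glyceroneogenesis and the first steps of insulin signalling were followed through 8 genes across 10 culture conditions of 3T3-L1 cells. They are the glucose transporters Slc2a4 and Slc2a1, the hexokinase Hk2, the glycogen phosphorylase Pygl, the gluconeogenic enzyme Pck1, the insulin receptor Insr, and its docking proteins Irs1 and Irs2. The genes were chosen by name for these roles, with earlier results of these arrays known, and all 8 were measured, out of 14763 genes with a name on the array. Each has 1 probe, so no gene value rests on an average of probes.

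3T3-L1 is a clonal mouse fibroblast line used as a model of the preadipocyte, and it turns into fat cells in culture when given adipogenic hormones. RNA of each culture was labelled with Cy3 and hybridised on a 2-colour array with a Cy5-labelled reference, which the labels describe as equal parts of all control and exposed samples. Cells 2 days past confluence were exposed in serum-containing medium, and RNA was taken on day 10. The 10 groups held 3 arrays each. MDI is the hormone cocktail: isobutyl methylxanthine (0.5 mM), dexamethasone (0.25 µM) and insulin (10 µg/mL) during 48 h, followed by insulin at 10 µg/mL for 8 days. ROSI usually stands for rosiglitazone, a PPAR gamma agonist, and TBT for tributyltin, an organotin. BPA usually stands for bisphenol A, BBP for benzyl butyl phthalate and DEHP for di(2-ethylhexyl) phthalate. The codes BP, EB and PP are kept as given. DMSO (0.1%) is the solvent control. The labels used here give no dose for the 8 agents, and insulin is stated for MDI cultures, so the cocktail's early hormones and its continued insulin cannot be told apart. The series record calls the 3 arrays of a group biological replicates, and nothing states how the cultures were separated.

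Slc2a4, also called GLUT4, is the transporter that insulin moves from inner vesicles to the surface of fat and muscle cells, and it appears late in adipocyte differentiation. Slc2a1, or GLUT1, carries glucose into most proliferating and undifferentiated cells without insulin. In white fat, Pck1 serves glyceroneogenesis: it makes phosphoenolpyruvate from oxaloacetate on the way to the glycerol 3-phosphate that binds fatty acids into triglyceride, and it is a known target of the fat cell receptor PPAR gamma and of cyclic AMP.

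Values are log2 ratios of sample over reference, turned from the deposited reference over sample, so a positive value means more RNA in the culture than in the mixed reference. They compare a gene between groups and cannot rank the genes against each other. Array medians lay between -0.00 and 0.01, and precision is limited by there being 3 arrays a group. The group means of DMSO and MDI ran against each other across named genes (r = -0.53), as they may when both stand in the same reference, and the direction was kept as the labelled dyes give it. Differences were tested with limma over all 30 arrays, with adjustment over 19231 entries, and a gene was called at an adjusted p under 0.05. With 3 arrays against 3, an exact permutation test cannot go under 0.1, so every call rests on the spread that limma pools over genes and groups.

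The promoters of Pck1 and Pygl are printed here because these 2 genes rose together in MDI cultures and parted in ROSI cultures, as described further on. Of the 8 genes, 6 matched the RefSeq promoter table (GRCm38.p6), which runs from 250 bases before to 50 bases after the gene's start. The stretch of Pck1 lies at chr2:173152823-173153122 on the plus strand and that of Pygl at chr12:70227634-70227933 on the minus strand. Capitals mark CGTCA, which is TGACG on the other strand, the core of the cyclic AMP response element.
Pck1: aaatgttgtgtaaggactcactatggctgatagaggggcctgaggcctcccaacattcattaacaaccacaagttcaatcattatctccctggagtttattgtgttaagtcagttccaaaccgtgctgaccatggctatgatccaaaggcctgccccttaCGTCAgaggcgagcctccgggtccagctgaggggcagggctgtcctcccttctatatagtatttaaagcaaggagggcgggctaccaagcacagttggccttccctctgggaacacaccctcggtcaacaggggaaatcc
Pygl: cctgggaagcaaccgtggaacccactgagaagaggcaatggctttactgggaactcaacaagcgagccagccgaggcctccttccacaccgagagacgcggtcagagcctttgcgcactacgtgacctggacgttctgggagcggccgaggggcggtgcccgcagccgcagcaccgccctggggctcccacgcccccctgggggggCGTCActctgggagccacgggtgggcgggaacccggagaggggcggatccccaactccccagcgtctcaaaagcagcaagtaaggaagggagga
The match stood at -90 to -86 from the start in Pck1 and at -44 to -40 in Pygl. Searched on both strands, TGACG was also found in the windows of Hk2, at -50 to -46, and Irs1, at -118 to -114, and 20.8% of 32851 promoters hold it. The windows of Slc2a1 and Irs2 do not contain these letters. The nuclear receptor motif AGGTCA was found in the Pygl window, at -128 to -123 on the other strand, and in 16.3% of promoters. The exact repeat of AGGTCA with 1 base between, of the type PPAR gamma is known to bind, was in none of the 6 windows. It was in 0.0396% of promoters, so nothing is read from its absence here, and inexact repeats were not searched. These matches are descriptions of the letters and not binding sites.

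In MDI cultures 6 of the 8 genes were higher than in DMSO cultures and none was lower, while 21.9% of all named genes were called higher and 19.6% lower. ROSI raised 6 and lowered 1, against 17.9% of genes called higher and 15.5% lower. TBT was the agent in which all 8 were called: 6 were higher and 2 lower, against 15.1% and 11.7% of all named genes. The median difference of the 8 genes was 1.18 in MDI, 0.68 in ROSI and 0.45 in TBT on the log2 scale, while the median over all named genes was 0.00 in each.

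In BP cultures 6 of the 8 genes were higher and none lower, against 14.0% and 9.14% of all named genes. PP raised 5 and lowered none, against 13.3% and 9.21%. BPA raised 5 and lowered none, against 12.6% and 7.96%. BBP raised 5 and lowered none, against 7.40% and 2.49%. With quantile normalization between arrays, 2 of the 8 were called higher in BPA and 1 in BBP. On that scale 3 were higher and 1 lower in BP, where Slc2a1 was the lower one, and 3 were higher and 1 lower in PP, where Pygl was the lower one. The median difference of the 8 was 0.42 in BP, 0.27 in PP, 0.31 in BPA and 0.34 in BBP.

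No member was called in DEHP or EB by limma. The background was thin there too: 0.00677% of named genes were called higher and 0.00677% lower in DEHP, and 0.515% higher and 0.264% lower in EB. At an unadjusted p under 0.05, 1 of the 8 differed in DEHP (Irs2) and 4 in EB (Slc2a4, Hk2, Pck1 and Insr), all higher than in DMSO, though Slc2a4 and Pck1 in EB turned to -0.09 and -0.10 with quantile normalization. At the same unadjusted threshold 5.82% of all named genes were higher in DEHP and 8.34% in EB. The comparisons with DMSO share the same 3 control arrays, so their calls are not separate evidence.

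**Figure D1:**
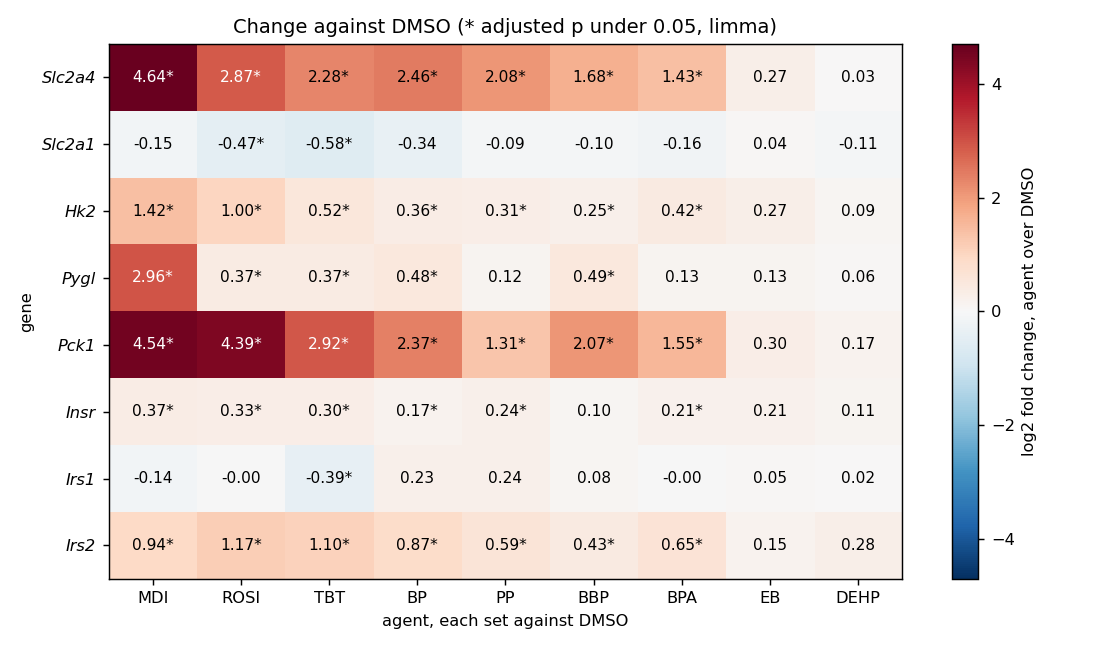
Difference of each agent from DMSO (log2 fold change, limma) for the 8 genes in rows and the 9 agents in columns, with red for higher and blue for lower and a star for an adjusted p under 0.05. Slc2a4 and Pck1 hold the largest values, up to 4.64 and 4.54 in MDI, Pygl stands at 2.96 in MDI and at 0.49 or less elsewhere, and the DEHP and EB columns hold no star. After quantile normalization the positive values of Pygl in ROSI, TBT, BP, PP and BPA, of Hk2 in BBP and PP, of Pck1 in PP, EB and DEHP and of Slc2a4 in EB and DEHP turn negative.

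Glucose entry was split between the transporters. Slc2a4 rose 25.0-fold in MDI cultures and was called higher with 7 of the 9 agents, of which BBP and BPA were lost with quantile normalization. Slc2a1 was called lower with 2 agents, ROSI and TBT, and higher with none.

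Slc2a4 stood at 1.84, 1.93 and 2.01 in the MDI arrays, against -2.72, -2.94 and -2.48 in the DMSO arrays. It stood at 0.04, 0.17 and 0.26 in ROSI and at -0.41, -0.33 and -0.55 in TBT. The MDI arrays are the highest of all 30, and none of the ROSI and TBT arrays comes near the DMSO arrays. The difference from DMSO was 4.64 ± 0.08 in MDI (SE, limma, adjusted p = 1.07e-22), 2.87 ± 0.08 in ROSI (adjusted p = 4.81e-19) and 2.28 ± 0.08 in TBT (adjusted p = 1.24e-16). With quantile normalization these 3 differences were 2.89, 1.69 and 0.99, all called. By size, Slc2a4 ranked 6 among 14763 named genes in MDI.

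With the other agents Slc2a4 gave a graded series. It stood at -0.35, -0.19 and -0.23 in BP and at -0.68, -0.59 and -0.63 in PP. BBP arrays read -1.09, -1.04 and -0.97, and BPA arrays -1.32, -1.27 and -1.28. The BP and TBT arrays overlap, while PP, BBP and BPA each keep apart from their neighbours in the order. The differences from DMSO were 2.46 in BP, 2.08 in PP, 1.68 in BBP and 1.43 in BPA, each with an SE of 0.08 (adjusted p at most 6.33e-12). With quantile normalization they shrank to 1.19, 0.67, 0.16 and 0.18, and the BBP and BPA calls were lost.

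EB arrays read -2.33, -2.50 and -2.49 for Slc2a4, and DEHP arrays -2.71, -2.69 and -2.64. Both groups overlap with DMSO. The EB difference of 0.27 had a 95% interval of 0.10 to 0.44 (adjusted p = 0.113), and it passed the test when DMSO replicate 3 was left out (0.39). The DEHP difference was 0.03, with an interval of -0.13 to 0.20.

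The spread of Slc2a4 between arrays of a group was small beside these steps, with an SD of 0.10 pooled over groups, 0.03 at the least in BPA and 0.23 at the most in DMSO. The order of its group means was MDI, ROSI, BP, TBT, PP, BBP, BPA, EB, DEHP and DMSO. Between neighbours in this order, BP with TBT and DEHP with DMSO overlapped and the others did not.

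**Figure D2:**
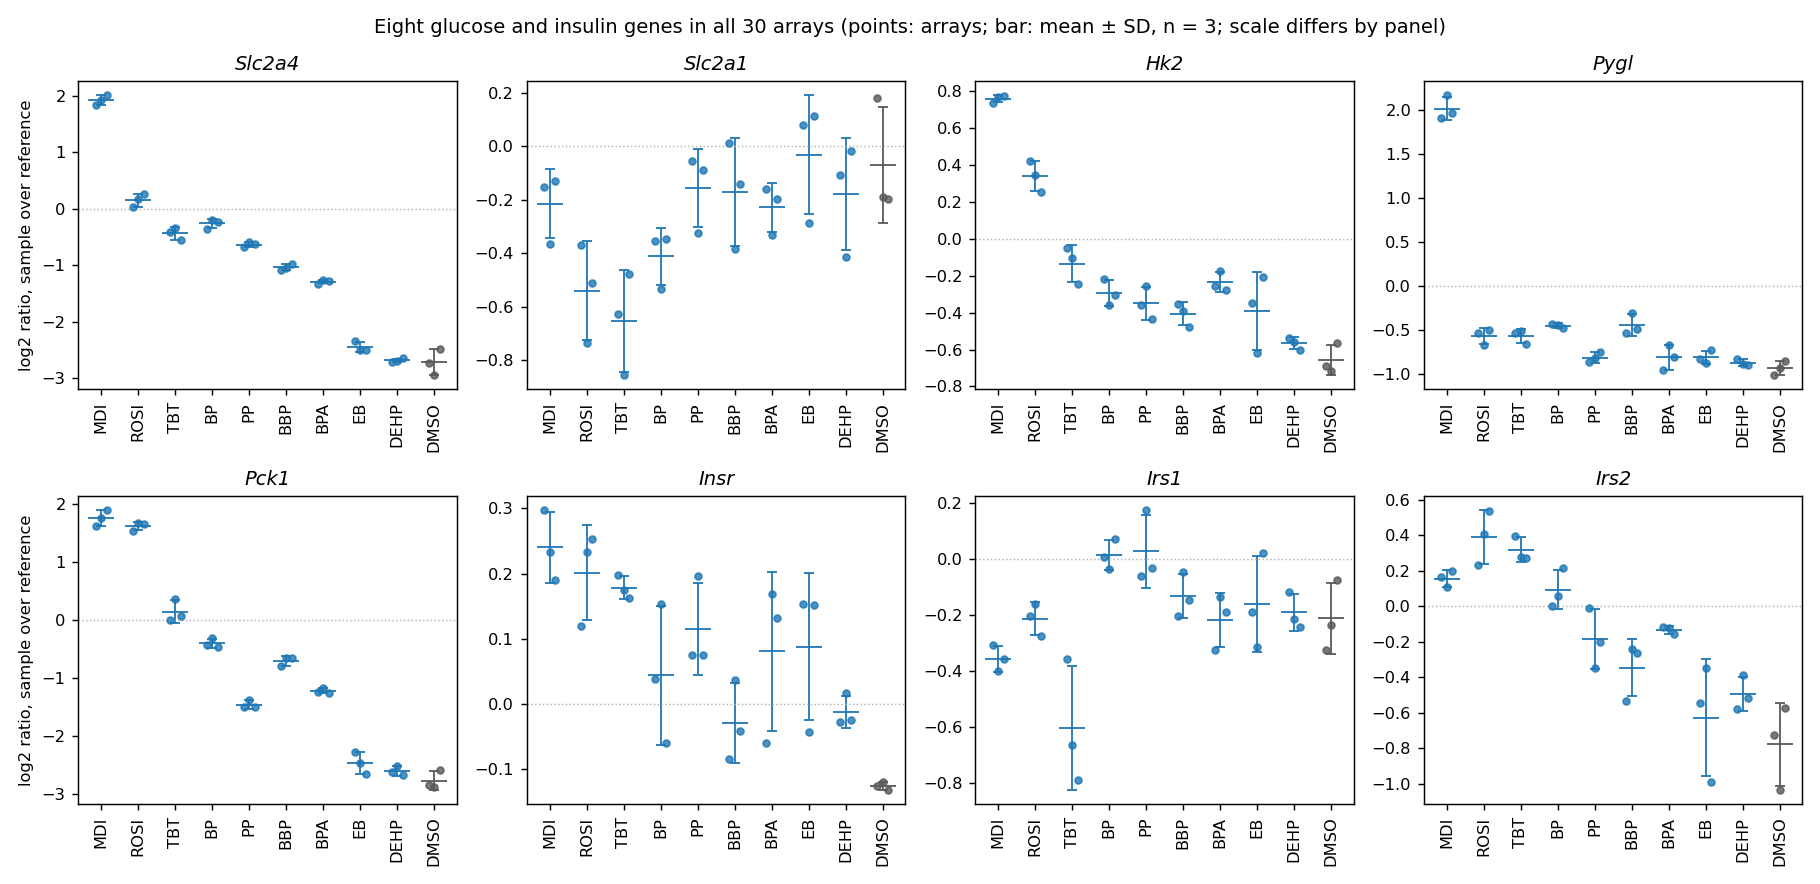
Log2 ratio of sample over reference for the 8 genes in all 30 arrays, with a point for each array and a bar for the mean ± SD (n = 3), agents in blue and DMSO in grey at the right, and a scale of its own in each panel. Slc2a4 and Pck1 are highest in MDI and lowest in DMSO, at about -2.7 and -2.8, and PP lies above BBP for Slc2a4 but below it for Pck1. Pygl is high in MDI alone, and Slc2a1 is lowest in TBT and ROSI.

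Slc2a1 moved within a much narrower range, 0.62 between its highest and lowest group means. It stood at -0.63, -0.86 and -0.48 in TBT and at -0.37, -0.74 and -0.51 in ROSI, against 0.18, -0.19 and -0.20 in DMSO. All TBT and ROSI arrays lie below all DMSO arrays. The difference was -0.58 ± 0.13 in TBT (limma, adjusted p = 0.00166) and -0.47 ± 0.13 in ROSI (adjusted p = 0.00807). The ROSI call did not hold without DMSO replicate 1 (-0.35) or without ROSI replicate 2 (-0.37), and the TBT call held without each array in turn.

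BP arrays stood at -0.35, -0.53 and -0.35 for Slc2a1, also below all DMSO arrays, but the difference of -0.34 missed the threshold (adjusted p = 0.0742). It passed in 3 of 16 alternatives, among them quantile normalization (-0.57) and array weights (-0.41). In MDI cultures, where Slc2a4 was highest, Slc2a1 stood at -0.15, -0.36 and -0.13 and overlapped with DMSO. Its difference was -0.15, with an interval of -0.42 to 0.13. The remaining 5 agents differed from DMSO by -0.16 to 0.04, with no call.

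Slc2a1 also varied by replicate number. Replicate 2 lay below the mean of its group in 10 of 10 groups and was the lowest of the 3 arrays in 9 of 10, with a mean deviation of -0.18 from the group mean. Replicate 1 lay below its group mean in 0 of 10 groups, with a mean deviation of 0.11, and replicate 3 in 1, with 0.07. Each group has the same numbers, so the shift is shared by agents and DMSO, and what the replicate number stands for is not stated. Leaving out 1 array breaks this balance between the compared groups. With the replicate number added to the limma fit, the Slc2a1 calls in ROSI and TBT held (adjusted p = 9.80e-06 and 6.77e-07). Over the 16 alternatives the adjusted p ran from 9.80e-06 to 0.543 in ROSI and from 6.77e-07 to 0.176 in TBT. For no other member was a replicate number on one side of the group mean in all 10 groups.

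**Figure D3:**
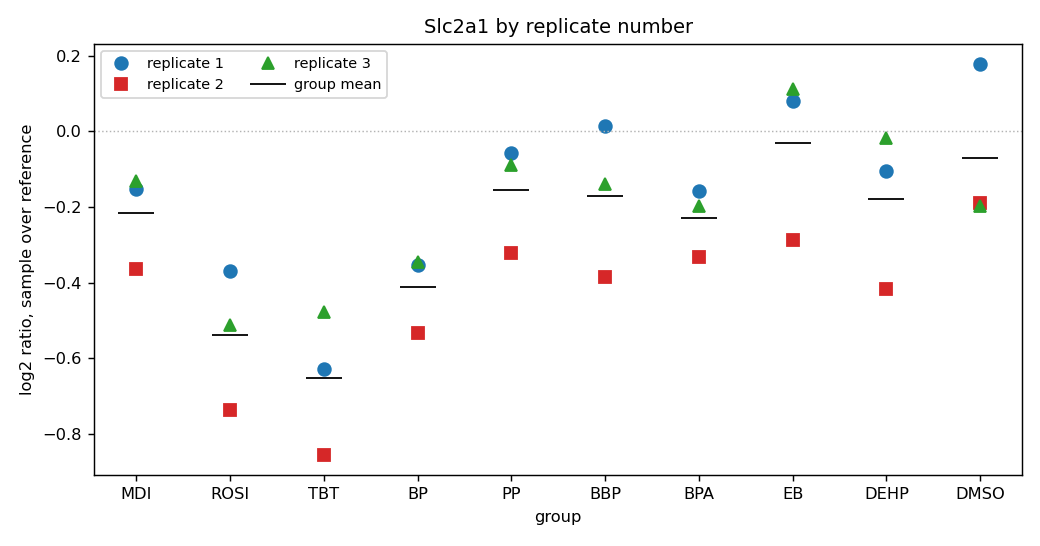
Log2 ratio of Slc2a1 in each group, with agents to the left and DMSO at the right, a symbol for each replicate number and a black bar for the group mean. Replicate 2 lies below the bar in all 10 groups, by 0.18 on average.

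Of the 9 other facilitative glucose transporters listed, 7 were measured, and most did not pass the test. In MDI 1 was higher and none lower, in ROSI 1 was higher and none lower, and in TBT none was called. The gene called was Slc2a8, an intracellular transporter, at 0.67 ± 0.05 in MDI (limma, adjusted p = 4.00e-11) and 0.40 in ROSI. Slc2a12, which fat and muscle also express, did not pass in MDI (-0.17, adjusted p = 0.0808). The median of the list was 0.02 in MDI, -0.02 in ROSI and 0.08 in TBT, beside 0.00 for all named genes. Among all named genes the calls were 21.9% higher and 19.6% lower in MDI, 17.9% and 15.5% in ROSI, and 15.1% and 11.7% in TBT. Nothing particular to the list is read from its counts.

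Genes that sort and move the Slc2a4 vesicle were called in both directions. Of the 14 measured, 5 were higher and 3 lower in MDI, 4 and 3 in ROSI, and 3 and 3 in TBT. Nothing particular to the list is read from these counts, since of all named genes 21.9% were higher and 19.6% lower in MDI, 17.9% and 15.5% in ROSI and 15.1% and 11.7% in TBT. Trarg1, a membrane protein of the Slc2a4 vesicle, differed by 1.38 ± 0.10 in MDI, 1.48 in ROSI and 0.88 in TBT. Sort1, the sorting receptor that helps form the vesicle, differed by 0.82 ± 0.05, 0.60 and 0.26. Rab10, which brings the vesicle to the surface, differed by 0.33 in MDI, 0.23 in ROSI and 0.27 in TBT. Myo1c, a motor at the membrane, differed by -0.41, -0.10 (not called) and -0.30. The list's median was 0.01 in MDI, 0.07 in ROSI and -0.06 in TBT.

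Hk2 traps glucose in the cell as glucose 6-phosphate and is the hexokinase form tied to insulin-sensitive tissue. It was higher with the same 7 agents as Slc2a4, at smaller size. It stood at 0.74, 0.77 and 0.77 in MDI and at 0.42, 0.35 and 0.25 in ROSI, against -0.69, -0.72 and -0.56 in DMSO. No array of MDI or ROSI overlaps with any other group. The difference was 1.42 ± 0.07 in MDI (limma, adjusted p = 3.52e-14) and 1.00 ± 0.07 in ROSI (adjusted p = 5.69e-11). With quantile normalization they were 0.86 and 0.75.

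TBT arrays stood at -0.05, -0.10 and -0.25 for Hk2, a difference of 0.52 ± 0.07 (0.29 with quantile normalization). BPA differed by 0.42, BP by 0.36, PP by 0.31 and BBP by 0.25 (adjusted p = 0.0343), but after quantile normalization BBP turned to -0.04 and PP to -0.003, and the BPA and BP calls were lost at 0.20 and 0.05. In EB the arrays were spread, at -0.35, -0.62 and -0.21, and the difference of 0.27 missed the threshold (adjusted p = 0.0920). Without EB replicate 2 it was 0.38 and passed. The BBP call was also lost without DMSO replicate 1 or 2 or BBP replicate 1 or 2 (0.22 to 0.24). DEHP differed by 0.09, with an interval of -0.06 to 0.25.

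Glycolysis below Hk2 rose with it. Of the 17 glycolytic genes measured, 14 were higher in MDI, 12 in ROSI and 11 in TBT, and none was lower. Of all named genes 21.9% were higher and 19.6% lower in MDI, 17.9% and 15.5% in ROSI, and 15.1% and 11.7% in TBT. The median of the glycolytic genes was 1.36 in MDI, 0.39 in ROSI and 0.38 in TBT. Pfkfb3, which makes the activator of phosphofructokinase, differed by 2.12 ± 0.07 in MDI, 2.25 in ROSI and 1.46 in TBT. Pgam1, a phosphoglycerate mutase, differed by 2.01 ± 0.06, 1.16 and 0.80. Aldoa, an aldolase, was 1.83 higher in MDI, and Ldha, which turns pyruvate to lactate, 2.15 higher. With quantile normalization 14 were higher in MDI, 10 in ROSI and 11 in TBT, and 2 were lower in TBT.

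Pygl cuts glucose 1-phosphate from glycogen and is best known as the liver form of glycogen phosphorylase. It was 7.77-fold higher in MDI than in DMSO, while its difference from DMSO was at most 0.49 with any other agent. It stood at 1.91, 2.17 and 1.97 in MDI, against -1.02, -0.94 and -0.86 in DMSO. ROSI arrays read -0.53, -0.67 and -0.50, and TBT arrays -0.54, -0.51 and -0.66. The MDI arrays stand more than 2 log2 units above every array of the other groups, and the ROSI and TBT arrays overlap with each other just above DMSO.

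The MDI difference of Pygl was 2.96 ± 0.07 (limma, adjusted p = 2.00e-20). It was 0.49 in BBP, 0.48 in BP, 0.37 in ROSI and 0.37 in TBT, each with an SE of 0.07 (adjusted p at most 3.88e-04), but with quantile normalization ROSI, TBT and BP turned to -0.18, -0.19 and -0.04 and none of these 4 was called. In BPA, EB, PP and DEHP it was 0.06 to 0.13 with no call, and with quantile normalization BPA turned to -0.25 (not called) and PP to -0.51, which was called lower (adjusted p = 0.00841, range over the alternatives 0.00841 to 1). The MDI difference was 2.22 on that scale.

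The rest of the glycogen genes were called in both directions. Of the 19 measured, 11 were higher and 5 lower in MDI, 9 and 3 in ROSI, and 8 and 1 in TBT. Their medians were 0.23, 0.13 and 0.11. Of all named genes 21.9% were higher and 19.6% lower in MDI, 17.9% and 15.5% in ROSI, and 15.1% and 11.7% in TBT. Nothing particular to the list is read from its counts of lower genes. Pgm1, named so by the array table, a phosphoglucomutase between glycogen and glycolysis, differed by 1.96 ± 0.06 in MDI, 1.46 in ROSI and 1.08 in TBT. Stbd1, which anchors glycogen to membranes, differed by 0.70, 1.03 and 0.60. Gbe1, the branching enzyme, differed by 1.62 in MDI, 0.79 in ROSI and 0.44 in TBT. Gys1, the glycogen synthase of muscle and fat, differed by 1.55, 0.82 and 0.60.

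Pck1 rose as far as Slc2a4 in MDI and almost as far in ROSI. It stood at 1.62, 1.76 and 1.90 in MDI and at 1.53, 1.66 and 1.65 in ROSI, against -2.86, -2.89 and -2.59 in DMSO. MDI and ROSI arrays overlap, and both lie far above all others. The difference from DMSO was 4.54 ± 0.10 in MDI (limma, adjusted p = 1.31e-21) and 4.39 ± 0.10 in ROSI (adjusted p = 5.50e-21), 23.2-fold and 21.0-fold. With quantile normalization they were 2.73 and 2.94, both called. By size it ranked 9 among named genes in MDI and 6 in ROSI.

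TBT arrays stood at -0.01, 0.37 and 0.06 for Pck1, a difference of 2.92 ± 0.10 (1.76 with quantile normalization). BP arrays read -0.44, -0.32 and -0.46 and BBP arrays -0.81, -0.66 and -0.67, with differences of 2.37 and 2.07. BPA arrays read -1.24, -1.17 and -1.26 and PP arrays -1.51, -1.38 and -1.50. None of these 5 groups overlaps with another or with DMSO. The BPA difference was 1.55 and the PP difference 1.31 (adjusted p = 8.44e-11), but the PP value turned to -0.24 after quantile normalization, and BP, BBP and BPA shrank to 1.02, 0.70 and 0.30. The PP call held in 15 of 16 alternatives.

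EB arrays stood at -2.29, -2.48 and -2.66 and DEHP arrays at -2.62, -2.52 and -2.68 for Pck1, both overlapping with DMSO. The differences were 0.30 (adjusted p = 0.135) and 0.17 (adjusted p = 0.537), with intervals of 0.11 to 0.50 and -0.03 to 0.37. PP is the agent in which Slc2a4 and Pck1 stood furthest apart in order: Slc2a4 ranked PP above BBP and BPA, and Pck1 ranked it below both.

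Most of the measured enzymes around Pck1 on the way to glycerol 3-phosphate were called higher. Of the 14, 9 were higher and 1 lower in MDI, 11 and 1 in ROSI, and 11 and none in TBT, and the medians were 0.78, 0.65 and 0.51, beside 0.00 for all named genes. The share of named genes called higher was 21.9% in MDI, 17.9% in ROSI and 15.1% in TBT. The lower one, named after its value was seen, was Pck2, the mitochondrial form of the enzyme, at -0.10 in MDI and -0.16 in ROSI, and none was lower in MDI with quantile normalization. Gpd1, which reduces dihydroxyacetone phosphate to glycerol 3-phosphate, differed by 4.00 ± 0.13 in MDI, 3.88 in ROSI and 2.82 in TBT. Pcx, which supplies the oxaloacetate, differed by 3.06 ± 0.11, 2.60 and 2.16. Of the malate dehydrogenases, Mdh1 differed by 2.07, 1.84 and 1.09 and Mdh2 by 1.74, 1.73 and 1.01.

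**Figure D4:**
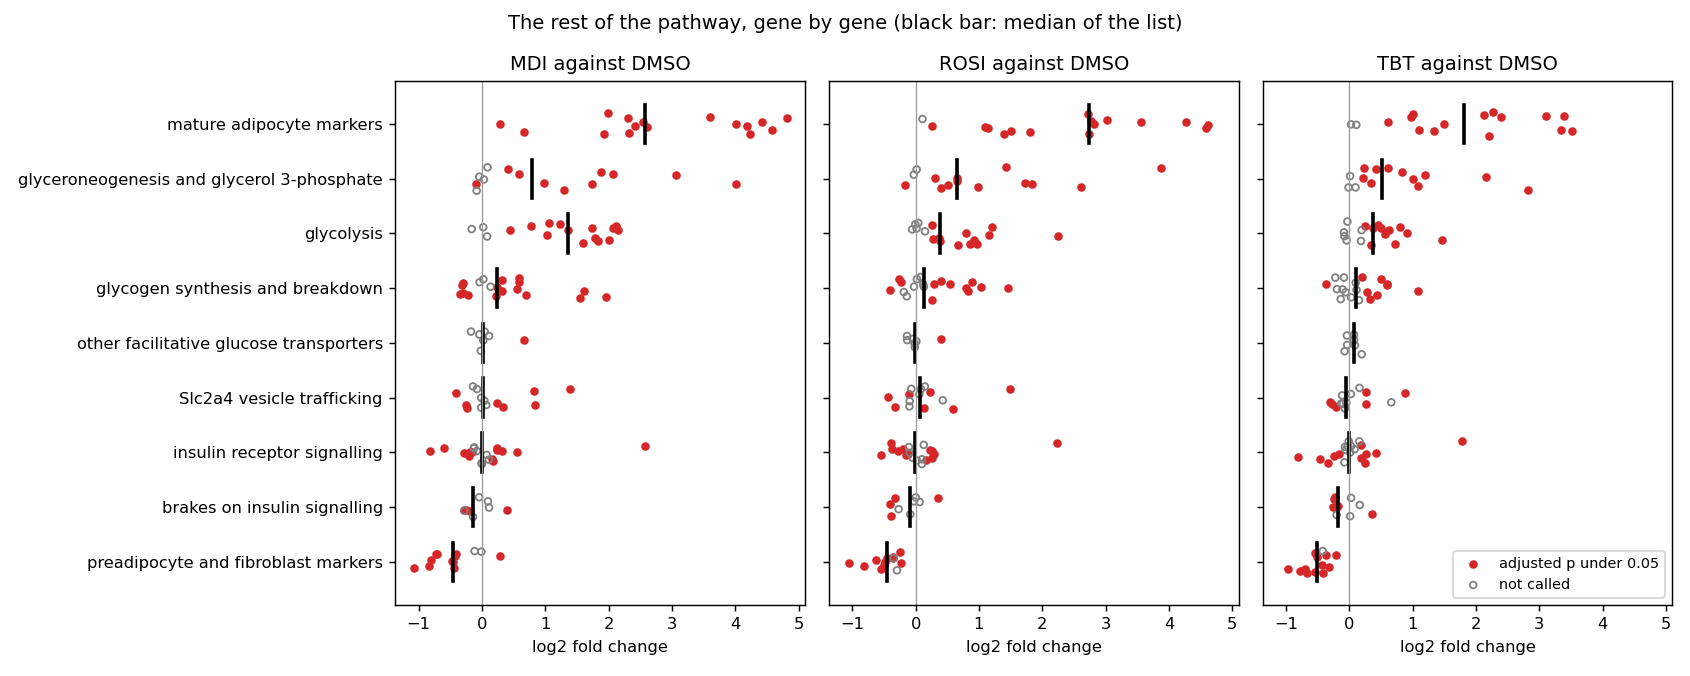
Difference from DMSO (log2 fold change) of each measured gene of 9 lists around the 8 genes, in MDI, ROSI and TBT, with filled red points for an adjusted p under 0.05 in limma, open points for no call, and a black bar for the list's median. Glycolysis has its bar at 1.36 in MDI, 0.39 in ROSI and 0.38 in TBT, while the bars of the other glucose transporters, of Slc2a4 vesicle genes and of insulin receptor signalling lie within 0.08 of 0.

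The insulin signal begins at Insr, the receptor kinase. Insr rose a little with 6 agents, and its range over groups was 0.37. It stood at 0.30, 0.23 and 0.19 in MDI, at 0.12, 0.23 and 0.25 in ROSI and at 0.20, 0.17 and 0.16 in TBT, against -0.13, -0.12 and -0.13 in DMSO. The DMSO arrays lie close together (SD 0.006) and below all agent arrays. The differences were 0.37 ± 0.06 in MDI (limma, adjusted p = 2.34e-05), 0.33 in ROSI and 0.30 in TBT.

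In PP the Insr difference was 0.24, in BPA 0.21 (adjusted p = 0.0185) and in BP 0.17 (adjusted p = 0.0494). The BP call lay at the threshold and held in 4 of 16 alternatives. The BPA call was lost without BPA replicate 2 (0.16) or replicate 3 (0.18), with quantile normalization (0.19) and in a fit of the compared groups alone. The EB difference of 0.21 missed the threshold (adjusted p = 0.0981) and passed without EB replicate 2 (0.28). DEHP differed by 0.11 and BBP by 0.10, with no call.

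Irs1 and Irs2 carry the signal from the receptor to PI3-kinase, and they parted. Irs2 was called higher with 7 agents and Irs1 with none, while Irs1 was lower with TBT. Irs2 stood at 0.23, 0.41 and 0.54 in ROSI, at 0.40, 0.28 and 0.27 in TBT and at 0.16, 0.11 and 0.20 in MDI, against -0.73, -1.04 and -0.58 in DMSO. All 3 groups lie above all DMSO arrays, and the MDI arrays lie below all ROSI and TBT arrays. The difference was 1.17 ± 0.13 in ROSI (limma, adjusted p = 4.06e-08), 1.10 in TBT (adjusted p = 1.94e-07) and 0.94 in MDI (adjusted p = 1.03e-06).

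Irs2 is the member whose highest group mean was ROSI and not MDI, but ROSI and TBT did not differ from MDI in the test (0.24 and 0.16, adjusted p = 0.220 and 0.401). BP differed from DMSO by 0.87, BPA by 0.65, PP by 0.59 and BBP by 0.43, each with an SE of 0.13. The BBP call (adjusted p = 0.0287) was lost without DMSO replicate 1 or 2 or BBP replicate 2 or 3, at 0.31 to 0.46, in a fit of the compared groups alone, and with quantile normalization, at 0.10. EB arrays ran from -0.99 to -0.35, the widest spread of any group for this gene (SD 0.33), and the EB and DEHP differences of 0.15 and 0.28 were not called.

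Irs1 stood at -0.36, -0.66 and -0.79 in TBT, against -0.32, -0.24 and -0.08 in DMSO. All TBT arrays lie below all DMSO arrays. The difference was -0.39 ± 0.09 (limma, adjusted p = 0.00205). In BP the arrays stood at 0.01, -0.04 and 0.07 and in PP at -0.06, 0.17 and -0.03, above all DMSO arrays. Those differences of 0.23 and 0.24 missed the threshold (adjusted p = 0.0850 and 0.0696), and both passed without DMSO replicate 3 (0.29 and 0.31). MDI differed by -0.14, with an interval of -0.33 to 0.05, and ROSI by -0.00, with an interval of -0.19 to 0.19.

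Other genes of the insulin cascade were called in both directions. Of 20 genes measured, 7 were higher and 6 lower in MDI, 6 and 7 in ROSI, and 6 and 5 in TBT, and the median was -0.00, -0.01 and 0.00. Of all named genes 21.9% were higher and 19.6% lower in MDI, 17.9% and 15.5% in ROSI, and 15.1% and 11.7% in TBT. With quantile normalization 4 of the 20 were higher and 6 lower in MDI. Sh2b2, an adaptor of the receptor in fat cells, stood out at 2.57 ± 0.07 in MDI, 2.23 in ROSI and 1.79 in TBT. Foxo1, the transcription factor that Akt shuts out of the nucleus, differed by 0.55 in MDI, 0.17 in ROSI and 0.43 in TBT. Akt2, the Akt form of insulin-sensitive tissue, differed by 0.32, 0.26 and 0.25. Grb14, an adaptor that inhibits the receptor, was lower in all 3, by -0.61, -0.55 and -0.81.

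Of 9 brakes on insulin signalling, 1 was higher and 3 lower in MDI, 1 and 3 in ROSI, and 1 and 4 in TBT. Of all named genes 21.9% were higher and 19.6% lower in MDI, 17.9% and 15.5% in ROSI, and 15.1% and 11.7% in TBT. With 9 genes, nothing particular to the list is read from these counts. Inppl1, a lipid phosphatase, was 0.40 higher in MDI, 0.36 in ROSI and 0.36 in TBT. Socs1, which blocks cytokine and insulin receptor signals, was lower by -0.28 in MDI, -0.39 in ROSI and -0.18 in TBT. Socs3 of the same family was lower by -0.41 in ROSI and -0.23 in TBT, and was not called in MDI (-0.05). Trib3, an Akt inhibitor, was lower by -0.26 in MDI, -0.33 in ROSI and -0.25 in TBT.

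Set directly against each other, MDI, ROSI and TBT cultures differed for 3 to 6 of the 8 genes. Against MDI, ROSI had 3 of the 8 genes lower and none higher, where 11.7% of named genes were lower and 10.9% higher. Pygl was 6.01-fold lower (log2 difference -2.59 ± 0.07, limma, adjusted p = 5.00e-18), Slc2a4 was 3.41-fold lower (-1.77 ± 0.08) and Hk2 was 1.34-fold lower (-0.42 ± 0.07, lost at -0.12 with quantile normalization). Pck1 differed by -0.15, with a 95% interval of -0.34 to 0.05 (adjusted p = 0.340), and by 0.21 with quantile normalization. Pygl ranked 9 from the bottom of 14763 genes in this comparison.

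Against MDI, TBT had 6 genes lower and none higher, where 16.9% of named genes were lower and 13.2% higher. Pygl differed by -2.59, Slc2a4 by -2.36, Pck1 by -1.62, Hk2 by -0.89, Slc2a1 by -0.44 and Irs1 by -0.25 (limma, adjusted p from 2.28e-18 to 0.0459). Irs1 arrays of TBT and MDI overlap, and this call did not hold without MDI replicate 1, 2 or 3 or TBT replicate 2 or 3 (-0.27 to -0.15). The Slc2a1 call was lost without MDI replicate 1 or 3 or TBT replicate 2 (-0.41 to -0.34). Insr and Irs2 were not called.

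Against ROSI, TBT had 4 genes lower and none higher, where 11.8% of named genes were lower and 7.72% higher. Pck1 differed by -1.47 ± 0.10 (limma, adjusted p = 4.26e-11) and ranked 3 from the bottom of all named genes. Slc2a4 differed by -0.59, Hk2 by -0.47 and Irs1 by -0.39. Pygl differed by -0.00, with an interval of -0.15 to 0.15 (adjusted p = 0.995).

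If the codes carry their usual meaning, DEHP and BBP are both diesters of phthalic acid, with alkyl chains on both sides in DEHP and a benzyl and a butyl group in BBP. Without doses they cannot be matched, so the comparison is of these cultures. Against BBP, DEHP had 3 genes lower and none higher, where 5.22% of named genes were lower and 1.06% higher. Pck1 stood at -2.62, -2.52 and -2.68 in DEHP, against -0.81, -0.66 and -0.67 in BBP, a difference of -1.90 ± 0.10 (limma, adjusted p = 5.70e-13). Slc2a4 differed by -1.65 ± 0.08 (adjusted p = 5.23e-13) and Pygl by -0.43 ± 0.07 (adjusted p = 3.36e-04), and neither passed with quantile normalization (-0.24 and -0.07).

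For the other 5 genes the intervals of the difference between DEHP and BBP were -0.31 to -0.00 for Hk2, -0.41 to 0.11 for Irs2, -0.25 to 0.13 for Irs1, -0.11 to 0.14 for Insr and -0.29 to 0.27 for Slc2a1. Hk2 arrays did not overlap, with the DEHP arrays lower, but the adjusted p was 0.295 and the difference of -0.16 turned to 0.08 with quantile normalization.

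**Figure D5:**
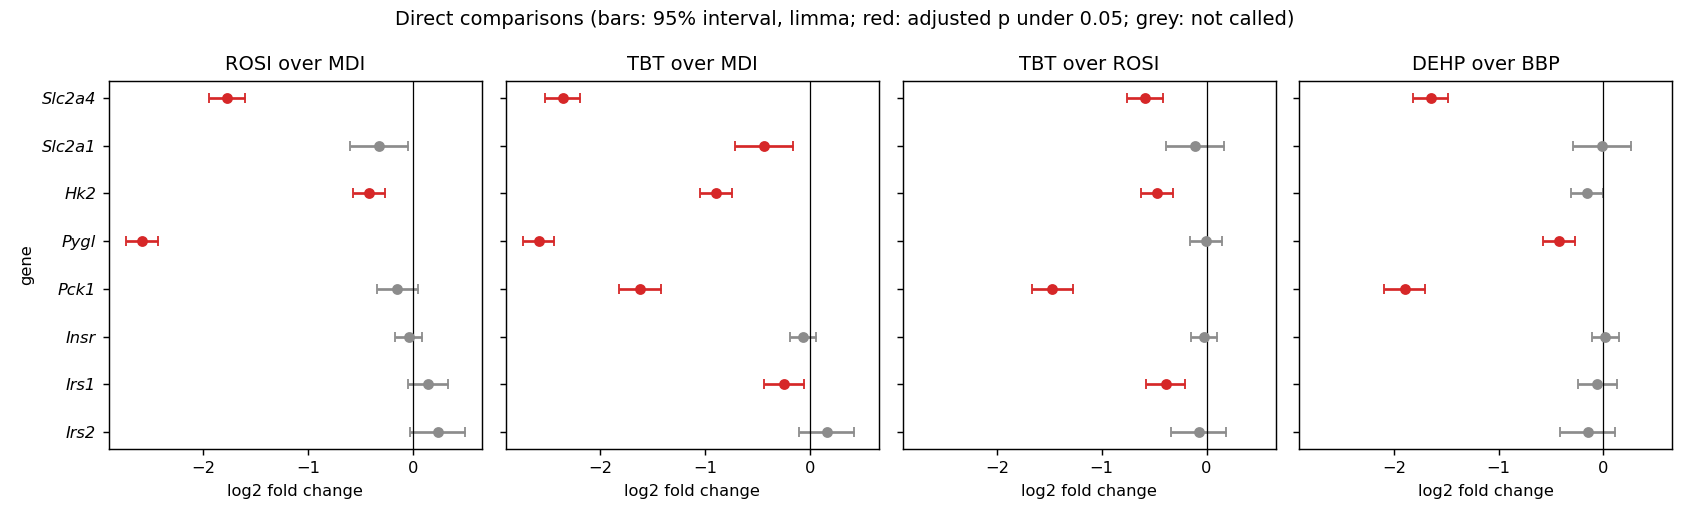
Direct differences (log2 fold change, first group over second) of the 8 genes, with 95% intervals from limma, red for an adjusted p under 0.05 and grey for no call. Pygl lies at -2.59 in ROSI over MDI and in TBT over MDI and at -0.00 in TBT over ROSI, while Pck1 lies at -0.15 (0.21 with quantile normalization), -1.62 and -1.47.

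Markers of the mature adipocyte moved with Slc2a4 and Pck1. Of 16 such markers measured, 16 were higher in MDI, 15 in ROSI and 14 in each of TBT, BP, PP, BBP and BPA. In EB 4 were higher and in DEHP none. Of all named genes, 21.9% were higher in MDI, 17.9% in ROSI, 15.1% in TBT, 14.0% in BP and 13.3% in PP. The share was 7.40% in BBP, 12.6% in BPA, 0.515% in EB and 0.00677% in DEHP. With quantile normalization the markers gave 16 higher in MDI, 14 higher and 1 lower in ROSI, and 13 and 1 in TBT. Their mean per array ran from 1.05 to 1.11 in MDI, from 0.51 to 0.61 in ROSI and from -0.05 to -0.00 in TBT, against -2.04 to -1.69 in DMSO. It ran from 0.17 to 0.26 in BP, 0.09 to 0.16 in PP, -0.55 to -0.44 in BBP and -0.70 to -0.60 in BPA. Retn, which encodes resistin, was 4.01 higher in MDI, and 1.09 in ROSI and 0.62 in TBT, the last 2 turning to -0.31 and -0.83 with quantile normalization. Cd36, a fatty acid transporter, was 4.18, 4.62 and 3.51 higher in MDI, ROSI and TBT. In a bulk culture, fewer cells of a type and less RNA per cell cannot be told apart, and the part of adipocyte number in the values of the 8 genes was not tested.

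Most preadipocyte and fibroblast markers went down in MDI, ROSI and TBT. Of 13 measured, 10 were lower and 1 higher in MDI, against 19.6% and 21.9% of all named genes. In ROSI 11 of these markers were lower, against 15.5%, and in TBT 12 of them, against 11.7%. Fewer were lower with the other agents: 6 in BPA, 5 in PP, 4 in BP and 1 in BBP. The shares of all named genes called lower there were 7.96%, 9.21%, 9.14% and 2.49%. None of these markers was lower in EB or DEHP, against 0.264% and 0.00677%. Their mean per array ran from -0.39 to -0.24 in MDI, -0.40 to -0.21 in ROSI and -0.42 to -0.30 in TBT, against 0.14 to 0.18 in DMSO. Dlk1, a preadipocyte marker, was lower by -1.05 in ROSI and -0.97 in TBT. Skeletal muscle markers, of interest since muscle also uses Slc2a4 and Hk2, had 5 measured, with 1 higher and 1 lower in MDI and a mean per array of -0.06 to -0.00 in MDI, against 0.05 to 0.08 in DMSO. Hepatocyte markers, of interest for Pygl and Pck1, had 2 measured and none called in MDI, ROSI or TBT. Of 6 macrophage markers, 2 were lower in MDI, and of 2 endothelial markers 1 was lower in MDI. Beside the shares of all named genes in MDI, nothing is read from these few muscle, macrophage and endothelial calls. As ratios to a mixed reference, the marker values cannot show that a marker is absent.

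Across the 10 group means, the members differed in how closely they followed the adipocyte markers. Pearson's r with the mean of the adipocyte markers was 0.97 for Slc2a4, 0.92 for Pck1, 0.88 for Irs2, 0.82 for Hk2, 0.78 for Insr and 0.64 for Pygl, but -0.12 for Irs1 and -0.57 for Slc2a1. Slc2a4 and Pck1 had r = 0.93, and Slc2a1 and Irs2 r = -0.87. These are descriptions over 10 groups that share a reference, and the members were known to differ between them.

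Among the other 14755 named genes, those most like Slc2a4 over the 10 group means were Acad9 (r = 0.995), an acyl-CoA dehydrogenase, Rarres2 (0.995), the adipokine chemerin, and Lpin1 (0.994), a phosphatidate phosphatase of triglyceride synthesis. Those most like Pygl were Aldh1l1 (0.991), a folate enzyme, Lep (0.986), the hormone leptin, and Sema4g (0.986). Aldh1l1 stood at 1.96 ± 0.19 in MDI (SD, n = 3) and at -1.19 ± 0.27 in ROSI, against -1.46 ± 0.23 in DMSO, and like Pygl it was high in MDI. Lep stood at 0.61 ± 0.08 in MDI and 0.05 ± 0.01 in ROSI, against -0.06 ± 0.04 in DMSO.

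For Pck1 the nearest were Tmem109 (0.989), Gfer (0.986) and Psmb6 (0.986), a proteasome subunit. For Hk2 they were Tmco1 (0.987), Sccpdh (0.986) and Psma6 (0.986), another proteasome subunit. Insr lay nearest to Zbtb20 (0.961), Ppp6c (0.952) and Mrpl19 (0.931). Irs2 lay nearest to Ldah (0.978), a lipid droplet hydrolase, E030030I06Rik (0.976) and Git2 (0.972).

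Irs1 was most like Thra (0.963), a thyroid hormone receptor, Pik3r3 (0.930), a regulatory subunit of PI3-kinase, and Ctsf (0.928). Slc2a1 was most like Sec61b (0.955), Dact1 (0.942) and Cacna1g (0.940). Sec61b spanned 0.23 and Dact1 0.16 between their highest and lowest group means, where Dact1 had an SD of 0.10 in MDI. For every member, the nearest genes were the highest of 14755 searched over 10 group means, and their r was not tested.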

How the data were processed

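Arrays of 2 colours measured RNA in 30 cultures of 10 groups. Limma is named, without a version, per the submitters' processing notes, and the background correction and normalization are not given in the sources used here. The deposited values are log ratios of reference (Cy5) over sample (Cy3), per the labels. Their base is not stated and was read as log2, since group differences equal the fold changes of the authors' deposited tables (DEHP not used, written with decimal commas) in size with the opposite sign. The adjusted p-values in the authors' deposited table fall on the same side of 0.05 as those here for the members and the 8 agents it covers, except Insr in BP (0.0508 in the authors' deposited table).

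Signs were turned, 26 of 23460 probes (controls) were left out and probes of a gene were averaged, giving 19231 entries. Limma 3.58.1 in R 4.3.3 fitted a mean per group (degrees of freedom: 20 residual, 3.56 prior). Its two-sided p-values were adjusted by Benjamini-Hochberg over all entries, separately for 9 agents against DMSO and 4 direct contrasts. Percentages of called genes are over the 14763 named genes. Intervals are 95%. Scripts were tested on simulated data. Figures used Python 3.11.15 and matplotlib 3.10.9.

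Named genes are the 8 members, the 3 named genes most like each, and, in each list, up to 4 with the smallest p in MDI and up to 2 in ROSI and in TBT. The members and lists were chosen with earlier results of these data known. Replicate numbers did not pair samples, with a mean correlation of deviations of 0.01 for the same and -0.00 for other numbers, except PP with DMSO (0.127, 0.207 and 0.166). There a replicate block changed no member's call. Intensities were not used here, so no filter on dim probes was run.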

Additional observations from a re-analysis of the deposited data

How the results depend on the processing

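Counts of members called stayed within 1.5 times the reported one in 188 cases over all alternatives and moved further in 15. With quantile normalization between arrays the count fell to 2 in BPA, 1 in BBP and 1 in DEHP against BBP. That step gives all arrays the same distribution. Before it, the cut-off under which the lowest 0.1% of entries lay was -1.12 in MDI and -2.44 in DMSO, averaged over arrays. In DMSO, Slc2a4 and Pck1 ranked 15 and 13 from below of 19231 entries. The same cut-off was -1.05 in PP, -1.05 in BBP and -1.34 in BPA. There Pck1 ranked 7, 79 and 29 from below, and Slc2a4 76, 20 and 23. Quantile normalization turned Pygl to -0.18 in ROSI, -0.19 in TBT, -0.0370 in BP and -0.51 in PP. It turned Hk2 to -0.0416 in BBP and -0.00305 in PP, and Pck1 to -0.24 in PP. The share of higher genes among those called moved to 48.4% (from 61.2%) in BPA, 54.0% (74.9%) in BBP, 27.3% (50%) in DEHP, 24.0% (66.1%) in EB and 31.8% (16.9%) in DEHP against BBP. A fold limit of 1.2 in the test left 4 members in ROSI, 4 in TBT, 2 in BPA, 2 in BBP, 3 in BP, 2 in PP and 2 in TBT against ROSI.

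Without each replicate in turn, BBP had 3 to 5 members called (3 without DMSO replicate 1, DMSO replicate 2 or BBP replicate 2) and EB 0 to 2 (1 without DMSO replicate 3, 2 without EB replicate 2). With the replicate block, no count of members moved by over 1.5 times. Slc2a1 then passed in BP (-0.34, adjusted p = 8.17e-04, range over its 16 alternatives 8.17e-04 to 1) and in ROSI against MDI (-0.32, adjusted p = 0.00126, range 0.00126 to 1), and Insr in BP and Irs1 in TBT against MDI did not (adjusted p = 0.0503 and 0.0587). Apart from PP with DMSO, the numbers are not known to pair cultures. Small changes, such as those of Insr and Irs1, are what 3 arrays a group limit most.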
